A study of Homo sapiens with 9 samples.

Results

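SLC39A7 encodes ZIP7, the zinc transporter targeted by the siRNAs of this experiment, and it was examined together with 9 protein-coding genes that lie beside it on chromosome 6. The neighbours were RXRB, HSD17B8, RING1, VPS52, B3GALT4, WDR46, PFDN6, RGL2 and DAXX. This was a fixed set of names chosen by position, with earlier results of these data known. It leaves out some other genes of the stretch. The 10 genes were drawn from 58395 gene identifiers, and all 10 were among the 16761 genes with enough reads to be tested. RNA-seq was done on MDA-MB-231, an established triple-negative breast cancer cell line, taken 96 h after reverse transfection in DMEM. Each of the 3 groups had 3 libraries: the non-targeting control siNC, the first siRNA against ZIP7 from Horizon (siZIP7_1) and the second from Qiagen (siZIP7_2). The groups shared the line and the transfection procedure and differed in the siRNA. All libraries came from a single line, and the labels do not say whether the libraries of a group were separate cultures, so the p-values measure only the spread between these libraries, which may be technical.

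ZIP7 sits in the membranes of the endoplasmic reticulum and Golgi and moves zinc out of these stores into the cytosol, and its gating is known to depend on phosphorylation by casein kinase 2. An siRNA guides the RNA-induced silencing complex to a matching messenger RNA, which is then cut or destabilised in the cytoplasm, so the process acts on transcripts and not on the gene itself. The gene lies at the edge of the MHC class II region, where genes are packed closely, some start head to head and some overlap at their ends. The comparison of SLC39A7 with the genes beside it asked whether the loss of this transcript was accompanied by changes in the genes of the same stretch of chromosome.

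SLC39A7 (ENSG00000112473) was measured first, as the targeted gene. Its expression, as read counts relative to the TMM-scaled library size (CPM), was 321, 343 and 322 CPM in the siNC libraries. It was 35.4, 32.9 and 38.6 CPM in the siZIP7_1 libraries and 20.5, 19.5 and 17.6 CPM in the siZIP7_2 libraries. All siRNA-treated libraries were far below all control libraries, and the ranges of the siZIP7 groups did not overlap each other. The fitted log2 fold change against siNC was -3.20 with siZIP7_1 (SE 0.058, adjusted p = 7.38e-27, by the quasi-likelihood test in edgeR, adjusted after Benjamini and Hochberg). It was -4.10 with siZIP7_2 (SE 0.063, adjusted p = 1.16e-28, same test). Ordered from the most reduced gene, SLC39A7 was at place 152 of the 16761 tested genes with siZIP7_1 and at place 6 with siZIP7_2. In bulk RNA, fewer cells of a type and less RNA per cell cannot be told apart.

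The genes were placed on GRCh38 with GENCODE 29. SLC39A7 runs from 33200445 to 33204439 on the plus strand of chromosome 6. RXRB (ENSG00000204231) occupies 33193588 to 33200688 on the minus strand and starts head to head with SLC39A7, sharing 244 exonic bases with it, which are 8.58% of the SLC39A7 exons and 6.22% of the RXRB exons. HSD17B8 (ENSG00000204228) follows on the same strand as SLC39A7, from 33204642 to 33206831, only 203 bases after its end. RING1 (ENSG00000204227) comes next on that strand, from 33208495 to 33212722, at 4.06 kb. After a gap, VPS52 (ENSG00000223501) lies on the minus strand from 33250272 to 33272047, at 45.8 kb. B3GALT4 (ENSG00000235863) is on the plus strand from 33277132 to 33284832, at 72.7 kb. WDR46 (ENSG00000227057), PFDN6 (ENSG00000204220) and RGL2 (ENSG00000237441) form a cluster with overlapping ends. WDR46 runs from 33279108 to 33289527 on the minus strand, PFDN6 from 33289302 to 33298401 on the plus strand and RGL2 from 33291654 to 33299324 on the minus strand. DAXX (ENSG00000204209), the most distant member, lies on the minus strand from 33318558 to 33323016, at 114 kb.

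The overlaps limit how single reads can be assigned, since the strand setting of the counting was not given in the sources used here. Other genes overlapped 34.9% of the exonic length of PFDN6, 15.9% of that of RGL2, 14.9% of that of VPS52, 14.3% of that of DAXX and 8.76% of that of WDR46. No other gene overlapped the exons of HSD17B8, RING1 or B3GALT4.

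Stretches of the locus are shown for HSD17B8, RING1 and VPS52, the neighbours whose measured differences were among the largest, from RefSeq promoter windows on GRCh38.p14. All are written 5′ to 3′ on the plus strand, and capitals mark letters found by the motif search on either strand. The first is the whole gap between the end of SLC39A7 and the start of HSD17B8, chr6:33204440-33204641, with a GC content of 66.3% and the letters of CCAAT read on the minus strand in capitals. The second lies directly before RING1, chr6:33208250-33208494, with a GC content of 73.1% and the letters GGGCGG and GACGTGG in capitals, the latter read on the minus strand. The third, chr6:33271966-33272009, lies in the start region of VPS52 and its head-to-head partner RPS18, with CCGGAAG in capitals. It runs from the outer RefSeq start of VPS52 at 33271965 to the GENCODE start of RPS18 at 33272010. The GENCODE body of VPS52, which starts at 33272047 on the minus strand, spans it.
SLC39A7 to HSD17B8: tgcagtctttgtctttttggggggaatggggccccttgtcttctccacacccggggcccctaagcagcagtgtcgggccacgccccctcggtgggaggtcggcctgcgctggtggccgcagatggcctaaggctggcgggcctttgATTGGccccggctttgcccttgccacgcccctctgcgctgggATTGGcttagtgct
before RING1: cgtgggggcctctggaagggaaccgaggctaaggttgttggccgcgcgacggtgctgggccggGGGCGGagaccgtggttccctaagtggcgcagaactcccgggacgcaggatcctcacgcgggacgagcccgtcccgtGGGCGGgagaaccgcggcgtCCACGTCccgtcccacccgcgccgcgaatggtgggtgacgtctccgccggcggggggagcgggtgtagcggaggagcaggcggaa
VPS52 and RPS18 start region: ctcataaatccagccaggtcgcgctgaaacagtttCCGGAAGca

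RefSeq windows around the gene start were given for 8 of the 10 members (there was none for B3GALT4 or DAXX). The motif letters were counted on both strands of these windows and of all 35116 windows in the table. RXRB, VPS52 and PFDN6 had more than a single window, and a member was counted if any of its windows held the motif. The share of all windows counts each window separately, so it is not a like measure and the members' counts can be raised beside it. GGGCGG, the core of a GC box, was in windows of 6 of the 8 members (SLC39A7, RXRB, HSD17B8, RING1, WDR46 and RGL2) and in 45% of all windows. CCAAT, the box bound by NF-Y, was in those of 4 members (SLC39A7, RXRB, HSD17B8 and WDR46) and in 34.6% of all windows. CCGGAAG, a sequence of the kind bound by ETS factors, was in those of 3 members (VPS52, WDR46 and PFDN6) and in 10.3% of all windows. GACGTGG, letters found in elements of the unfolded protein response, was in those of 4 members (SLC39A7, RXRB, RING1 and RGL2) and in 3.13% of all windows. The SLC39A7 and RXRB windows overlap and hold the same copy of it. The RXRB window from 33200616 to 33200915 is nearly the same stretch as the SLC39A7 window from 33200617 to 33200916. Both hold equal numbers of every motif searched, so SLC39A7 and RXRB are not independent members in any of these counts. The WDR46 and PFDN6 windows also overlap, and whether they share a motif copy was not tested. CACGTG, an E-box, was in the window of WDR46 and in 7.26% of all windows. The metal response element cores TGCGCNC and TGCACNC were in no member's window, and in 7012 and 4238 of all windows. A match describes the letters of a window and is no evidence of a bound site.

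The reads of the 10 genes were then summed, a measure that does not depend on the scaling between libraries. SLC39A7 held 30.8% of the members' reads in siNC replicate 1 (8833 of 28696 reads, Wilson 95% interval 30.2 to 31.3%), 32.4% in replicate 2 and 31.9% in replicate 3. It held 5.41, 5.09 and 5.78% in the siZIP7_1 libraries and 3.89, 3.88 and 3.51% in the siZIP7_2 libraries. SLC39A7 therefore went from the largest contributor of reads among the members to a small one, and no groups overlapped. The mean share was 31.7% ± 0.812 (SD, n = 3) with siNC, 5.43% ± 0.348 (SD, n = 3) with siZIP7_1 and 3.76% ± 0.216 (SD, n = 3) with siZIP7_2. Each pair of groups gave p = 0.1 in a two-sided exact permutation test, which is the smallest p that 3 libraries against 3 allow. Intervals of this kind cover counting error only.

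**Figure D1:**
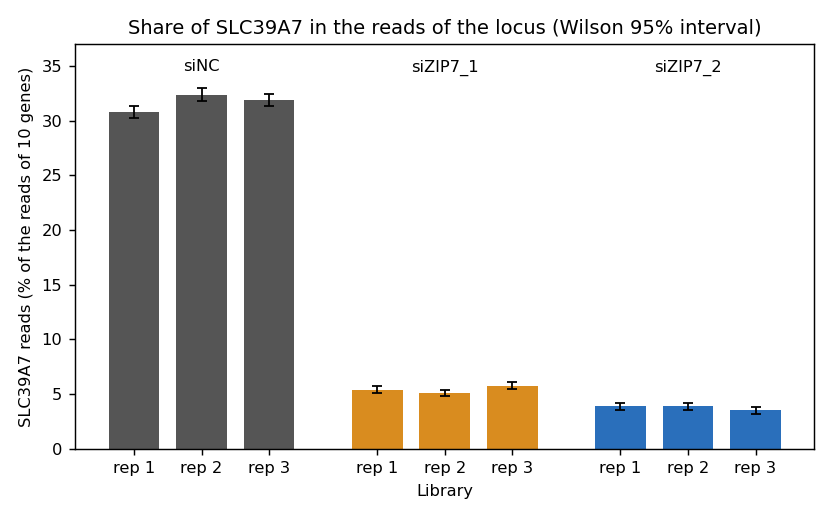
Share of SLC39A7 in the reads of the 10 genes, in percent, for each of the 9 libraries, with bars starting at 0 and error bars for the Wilson 95% interval. The siNC libraries stand near 31.7% and the siZIP7_1 and siZIP7_2 libraries near 5.43% and 3.76%.

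RXRB, the retinoid X receptor beta and the gene that shares its start region with SLC39A7, was at 116, 107 and 107 CPM with siNC. It was at 115, 112 and 114 CPM with siZIP7_1 and at 80.4, 76.7 and 75.3 CPM with siZIP7_2. The siZIP7_1 libraries lay within the spread of the controls, whereas the siZIP7_2 libraries lay below all other libraries. The log2 fold change with siZIP7_1 was 0.05 (SE 0.048, 95% interval -0.05 to 0.15, adjusted p = 0.377, edgeR's quasi-likelihood test). RXRB fell with siZIP7_2 (log2 fold change -0.51, SE 0.049, adjusted p = 1.58e-10, same test). The number of SLC39A7 reads for each RXRB read was 2.99 ± 0.217 (SD, n = 3) with siNC, 0.313 ± 0.0226 with siZIP7_1 and 0.247 ± 0.0118 with siZIP7_2.

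HSD17B8 encodes a dehydrogenase that works with CBR4 in mitochondrial fatty acid synthesis. It was lowly expressed, at 5.66, 5.93 and 6.51 CPM with siNC (156, 138 and 183 reads). It was at 4.19, 4.71 and 4.93 CPM with siZIP7_1 (115, 137 and 157 reads) and at 1.51, 1.12 and 0.884 CPM with siZIP7_2 (39, 34 and 23 reads). The groups did not overlap, and the siZIP7_2 libraries held the fewest reads. HSD17B8 fell with siZIP7_2 (log2 fold change -2.37, SE 0.16, adjusted p = 1.09e-13, edgeR's quasi-likelihood test), which put it at place 138 from the most reduced gene of all tested. With siZIP7_1 the log2 fold change was -0.39 (SE 0.13, adjusted p = 0.00738, same test). That call was lost without siNC replicate 3 (log2 fold change -0.32, adjusted p = 0.0552). Set against the gene directly before it, HSD17B8 had 1.84 ± 0.160 reads (SD, n = 3) for every 100 SLC39A7 reads with siNC, 13.0 ± 1.25 with siZIP7_1 and 6.06 ± 1.22 with siZIP7_2.

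RING1, a ubiquitin ligase subunit of the Polycomb repressive complex PRC1, was at 87.8, 92.7 and 87.0 CPM with siNC. It was at 51.8, 46.9 and 54.7 CPM with siZIP7_1 and at 74.8, 65.4 and 67.0 CPM with siZIP7_2. Both siRNAs left it below every control library, and here the lower group was siZIP7_1. RING1 fell with siZIP7_1 (log2 fold change -0.80, SE 0.058, adjusted p = 5.1e-13, edgeR's quasi-likelihood test) and with siZIP7_2 (-0.37, SE 0.058, adjusted p = 1.4e-06).

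VPS52, a shared subunit of the GARP and EARP complexes that tether vesicles returning to the Golgi and to recycling endosomes, was at 86.4, 80.5 and 82.0 CPM with siNC. It was at 76.7, 77.7 and 77.2 CPM with siZIP7_1 and at 36.6, 36.6 and 32.2 CPM with siZIP7_2. The siZIP7_1 libraries lay just under the lowest control, and the siZIP7_2 libraries lay far below both groups. VPS52 fell with siZIP7_2 (log2 fold change -1.24, SE 0.055, adjusted p = 4.41e-18, edgeR's quasi-likelihood test). The value with siZIP7_1 was -0.10 (SE 0.052, 95% interval -0.21 to 0.00, adjusted p = 0.0743, same test).

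B3GALT4, a galactosyltransferase of ganglioside synthesis, was the least expressed member, at 2.07, 1.33 and 1.60 CPM with siNC. It was at 1.86, 1.37 and 1.57 CPM with siZIP7_1 and at 2.56, 2.14 and 2.11 CPM with siZIP7_2. The siZIP7_1 libraries fell inside the control range, and the siZIP7_2 libraries lay just above the highest control. B3GALT4 rose with siZIP7_2 (log2 fold change 0.43, SE 0.19, adjusted p = 0.0415, edgeR's quasi-likelihood test). That call was lost without siNC replicate 2 (adjusted p = 0.175), without siNC replicate 3 (adjusted p = 0.102) and without siZIP7_2 replicate 1 (adjusted p = 0.142), so it rested on single libraries. The value with siZIP7_1 was -0.08 (SE 0.20, adjusted p = 0.749).

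WDR46, a nucleolar protein of the small subunit processome that prepares ribosomal RNA, was at 147, 149 and 139 CPM with siNC. It was at 87.2, 89.7 and 91.9 CPM with siZIP7_1 and at 97.9, 102 and 105 CPM with siZIP7_2. Every siRNA library was below every control, and the siZIP7 groups were close to each other without overlapping. WDR46 fell with siZIP7_1 (log2 fold change -0.69, SE 0.048, adjusted p = 1.31e-13, edgeR's quasi-likelihood test) and with siZIP7_2 (-0.51, SE 0.047, adjusted p = 7.79e-11).

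PFDN6, a subunit of the prefoldin chaperone that hands unfolded actin and tubulin to the chaperonin, was at 64.5, 66.2 and 60.5 CPM with siNC. It was at 49.0, 53.4 and 53.0 CPM with siZIP7_1 and at 35.2, 34.8 and 35.5 CPM with siZIP7_2. The groups were ordered siNC, siZIP7_1 and siZIP7_2 with no overlap. PFDN6 fell with siZIP7_1 (log2 fold change -0.30, SE 0.053, adjusted p = 1.13e-05, edgeR's quasi-likelihood test) and with siZIP7_2 (-0.86, SE 0.055, adjusted p = 1.89e-14). Of its exonic length, 24.5% also belongs to RGL2 and 7.65% to WDR46, both on the opposite strand.

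RGL2, an exchange factor that activates Ral GTPases, was at 113, 109 and 110 CPM with siNC. It was at 131, 129 and 128 CPM with siZIP7_1 and at 78.0, 69.6 and 71.1 CPM with siZIP7_2. The siRNAs moved it to opposite sides of the controls, with no overlap among the groups. RGL2 rose with siZIP7_1 (log2 fold change 0.22, SE 0.048, adjusted p = 0.00017, edgeR's quasi-likelihood test) and fell with siZIP7_2 (-0.61, SE 0.049, adjusted p = 4.02e-12).

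DAXX, a chaperone of histone H3.3 that works with ATRX, was at 98.2, 104 and 95.3 CPM with siNC. It was at 102, 99.1 and 102 CPM with siZIP7_1 and at 98.5, 93.3 and 94.9 CPM with siZIP7_2. Each siZIP7 group overlapped the controls. The log2 fold change was 0.03 with siZIP7_1 (95% interval -0.07 to 0.13, adjusted p = 0.593, edgeR's quasi-likelihood test) and -0.05 with siZIP7_2 (95% interval -0.15 to 0.04, adjusted p = 0.311). The intervals reach no farther than 0.15 from 0, and DAXX was the only member for which neither siRNA passed the test. The small value with siZIP7_2 turned positive with upper-quartile normalization (0.05).

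**Figure D2:**
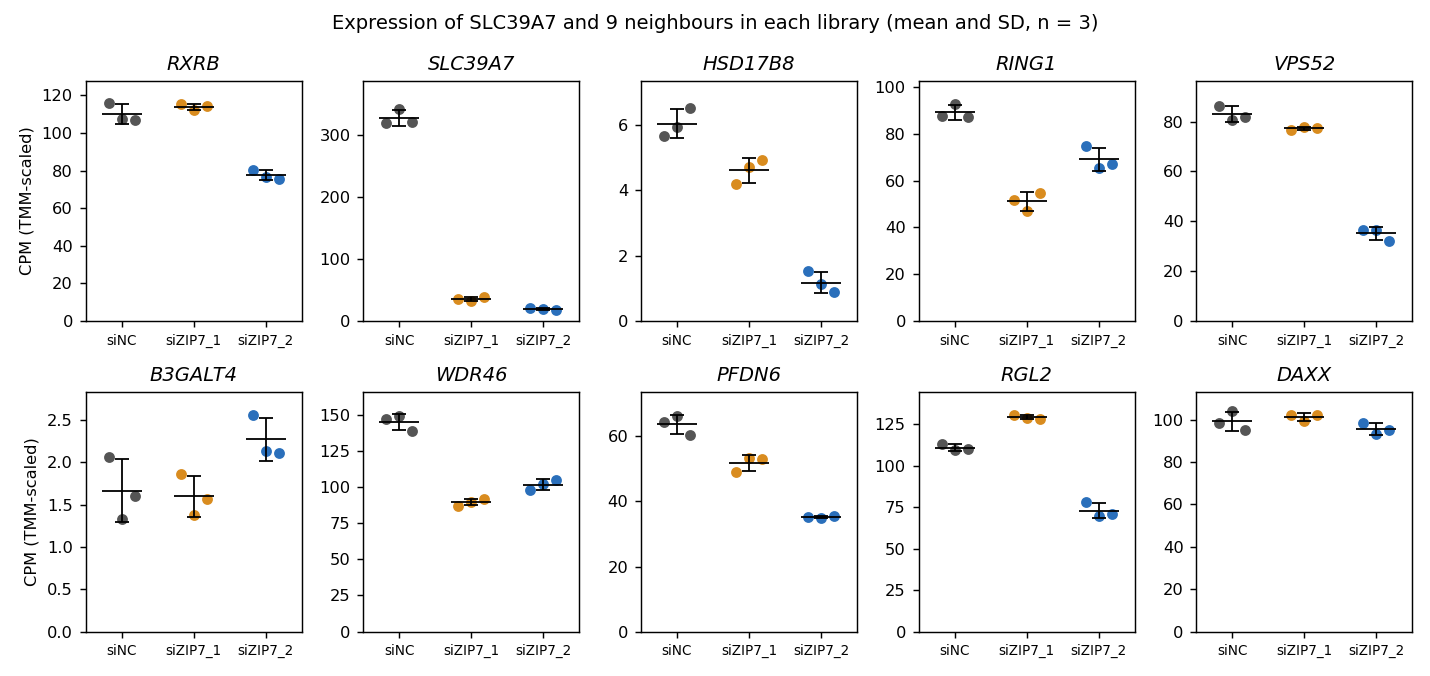
Expression of the 10 genes in chromosome order, in TMM-scaled CPM on axes that start at 0, with 1 point for each library, a line for the mean and bars for the SD (n = 3) in the siNC, siZIP7_1 and siZIP7_2 groups. The SLC39A7 libraries dropped from 321 CPM or more to 38.6 CPM or less, and the DAXX libraries stayed between 93.3 and 104 CPM.

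Counted together, 5 of the 9 neighbours passed the threshold with siZIP7_1, where 70.7% of all tested genes did. RGL2 was higher, against a background of 34.8% of genes called higher, and HSD17B8, RING1, WDR46 and PFDN6 were lower, against 35.9% called lower. With siZIP7_2, 8 of the 9 passed, where 77.8% of all tested genes did. B3GALT4 was higher, against 38.5%, and RXRB, HSD17B8, RING1, VPS52, WDR46, PFDN6 and RGL2 were lower, against 39.3%. The range of the siRNA libraries lay clear of the siNC range for 6 neighbours with siZIP7_1 (72.1% of all genes) and for 8 with siZIP7_2 (78.7%). With only 9 neighbours, these counts were too small to tell from the background, and the difference was not tested. Both comparisons used the same siNC libraries.

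The sizes of the differences tell the members apart from SLC39A7 itself. The median log2 fold change of the 9 neighbours was -0.10 with siZIP7_1, beside -0.0069 over all tested genes, and -0.51 with siZIP7_2, beside -0.0018. Without regard to sign, the median size was 0.22 for the neighbours and 0.48 for all genes with siZIP7_1. It was 0.51 and 0.58 with siZIP7_2. The most reduced neighbour was RING1 with siZIP7_1 and HSD17B8 with siZIP7_2. Tested against a change of 1.5-fold with edgeR's glmTreat, RING1 and WDR46 passed with siZIP7_1 (27.7% of all genes did), and HSD17B8, VPS52 and PFDN6 passed with siZIP7_2 (38.3% of all genes did). SLC39A7 passed with both. The summed CPM of the 9 neighbours was 709 ± 17.5 (SD, n = 3) with siNC, 620 ± 7.20 with siZIP7_1 and 490 ± 12.9 with siZIP7_2, and each pair of groups gave p = 0.1 in a two-sided exact permutation test, its smallest possible value.

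**Figure D3:**
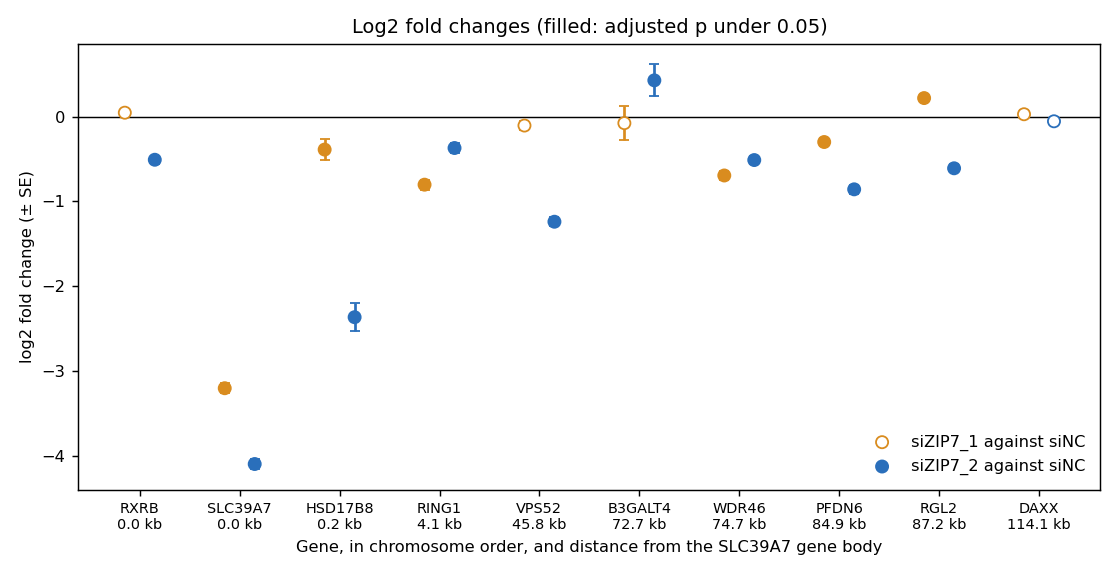
Log2 fold changes of the 10 genes against siNC with their SE, in chromosome order with the distance from the SLC39A7 gene body, in orange for siZIP7_1 and blue for siZIP7_2; filled points have an adjusted p under 0.05 by edgeR's quasi-likelihood test. SLC39A7 lies at -3.20 and -4.10, and the nearest other value is -2.37, for HSD17B8 with siZIP7_2.

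The direct comparison of siZIP7_2 with siZIP7_1 tested where the siRNAs differed. SLC39A7 was lower with siZIP7_2 by a log2 difference of -0.89 (SE 0.066, adjusted p = 4.89e-13, edgeR's quasi-likelihood test). Of the neighbours, 8 of 9 passed, where 78.7% of all tested genes did. Of these, 5 were lower with siZIP7_2 (40.6% of all genes) and 3 were higher (38.1%), and 3 passed against 1.5-fold with glmTreat (40.6% of all genes). HSD17B8 differed most, at -1.98 (SE 0.17, adjusted p = 1.01e-11), followed by VPS52 at -1.13 (SE 0.055, adjusted p = 2.33e-17) and RGL2 at -0.83 (SE 0.049, adjusted p = 2.48e-15). RXRB and PFDN6 were each lower with siZIP7_2 by -0.56. The calls that were higher with siZIP7_2 were RING1 at 0.43, WDR46 at 0.18 and B3GALT4 at 0.50. The call of B3GALT4 (adjusted p = 0.0162) was lost without siZIP7_1 replicate 2 (adjusted p = 0.0738) and without siZIP7_2 replicate 1 (adjusted p = 0.0744). DAXX differed by -0.08 (95% interval -0.18 to 0.01, adjusted p = 0.112). The library ranges of the siZIP7 groups did not overlap for any of the 9 neighbours, against 79.7% of all tested genes.

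Levels were compared between genes as CPM per kilobase of exon. With siNC the order was SLC39A7 at 116, RING1 at 49.0, WDR46 at 46.5, DAXX at 32.2, RXRB at 28.1, RGL2 at 24.5, PFDN6 at 21.6, VPS52 at 18.4, HSD17B8 at 5.15 and B3GALT4 at 0.708 CPM per kilobase. No genes next to each other in that order overlapped in their library ranges. Per length, SLC39A7 was the most highly expressed of the 10 genes, and HSD17B8, directly after it on the chromosome, was the ninth. The lengths include exonic bases shared with other genes, such as 34.9% of those of PFDN6, and ambiguous reads were left out. The places of genes with much overlap are therefore uncertain. With siZIP7_1, SLC39A7 stood eighth at 12.5 CPM per kilobase, below VPS52 at 17.1 and above HSD17B8 at 3.93. DAXX came first there at 32.8, and RXRB, WDR46, RGL2 and RING1 followed between 29.04 and 28.1 with ranges that overlapped from each to the next. With siZIP7_2, SLC39A7 was again eighth, at 6.74 CPM per kilobase, and overlapped VPS52 at 7.80. RING1 came first at 38.0, WDR46 at 32.6 and DAXX at 31.0 overlapped, and so did HSD17B8 at 1.00 and B3GALT4 at 0.964. Even after knockdown the SLC39A7 transcript remained more abundant per length than HSD17B8 and B3GALT4.

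**Figure D4:**
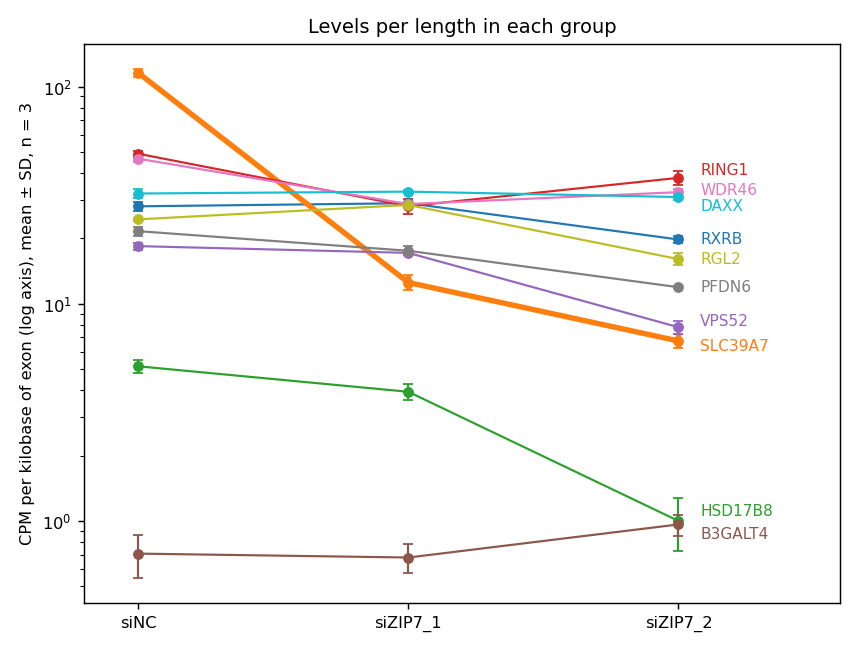
Mean level of each gene in CPM per kilobase of exon on a log axis, with SD (n = 3), in the siNC, siZIP7_1 and siZIP7_2 groups, joined by lines for reading only. SLC39A7 (thick line) crossed from the first place at 116 to the eighth at 12.5 and 6.74, while DAXX stayed between 31.0 and 32.8.

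Around the members, 11 other protein-coding genes had bodies within 100 kb of SLC39A7, and all were tested. They include 8 of the 9 neighbours (DAXX is farther away) and 3 more genes, COL11A2, RPS18 and TAPBP. Of the 11, 1 was higher and 7 were lower with siZIP7_1, where 34.8% of all tested genes were higher and 35.9% lower. Their median log2 fold change was -0.39, beside -0.0069 over all genes. With siZIP7_2, 2 were higher and 9 lower, where 38.5% of all tested genes were higher and 39.3% lower, and the median was -0.61, beside -0.0018. COL11A2, a collagen XI chain whose gene lies on the far side of RXRB, was barely expressed at 0.915 ± 0.180 CPM (SD, n = 3) with siNC. It fell with siZIP7_1 to 0.415 CPM (log2 fold change -1.13, SE 0.33, adjusted p = 0.00295, edgeR's quasi-likelihood test) and rose with siZIP7_2 to 2.26 CPM (log2 fold change 1.30, adjusted p = 1.52e-05). RPS18, a ribosomal protein gene that starts head to head with VPS52, went from 566 ± 38.5 CPM (SD, n = 3) to 428 ± 25.7 and 244 ± 5.25 CPM. RPS18 fell with both siRNAs, by 0.40 and 1.22 on the log2 scale, where VPS52 had values of -0.10 and -1.24. Ribosomal protein genes have many near-identical pseudogenes, so the RPS18 counts are uncertain. TAPBP, the tapasin that loads peptides onto MHC class I, went from 475 ± 12.3 CPM to 327 ± 1.36 and 148 ± 14.6 CPM and fell with both, by 0.54 and 1.68 on the log2 scale. ZBTB22, at 110 kb and so outside this window, lies nearer than DAXX and is not a member. It fell with siZIP7_2 (log2 fold change -1.18, SE 0.068, adjusted p = 2.13e-15, edgeR's quasi-likelihood test). With siZIP7_1 its value was 0.06 (adjusted p = 0.388, same test).

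**Figure D5:**
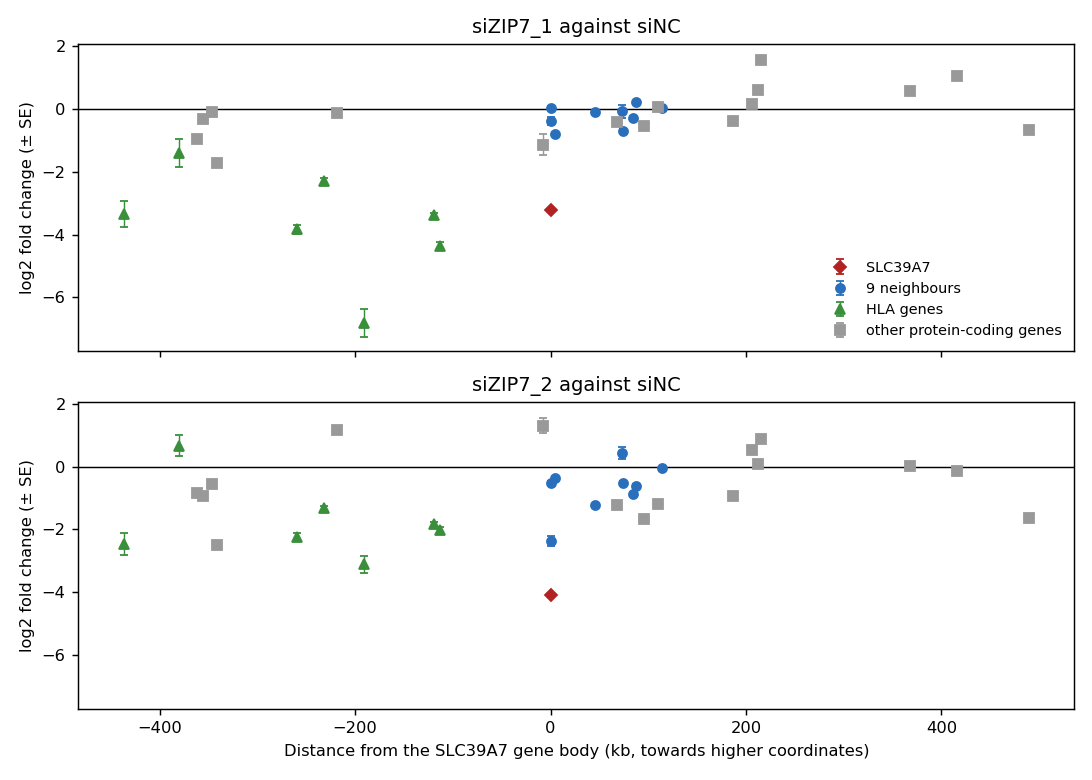
Log2 fold change against siNC with SE for tested protein-coding genes within 500 kb of SLC39A7, by distance from its gene body in kb, for siZIP7_1 (upper panel) and siZIP7_2 (lower panel). SLC39A7 (red) lies at -3.20 and -4.10. Its 9 neighbours (blue) range from -0.80 to 0.22 in the upper panel and from -2.37 to 0.43 in the lower. HLA genes (green) on the side of lower coordinates reach -6.83, for HLA-DOA with siZIP7_1. The size of that value is uncertain, since it rests on 1, 0 and 1 reads, against 88, 54 and 103 with siNC.

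Genes whose pair of log2 fold changes lay nearest to that of SLC39A7 were sought among 13735 other genes whose mean reached 1 CPM. The nearest by Euclidean distance over the 2 comparisons was VIPR1, a receptor for vasoactive intestinal peptide on chromosome 3, at a distance of 0.364 on the log2 scale. Its mean was 168 CPM in the controls and 23.2 and 9.18 CPM after siZIP7_1 and siZIP7_2. CD96 followed at 0.963, CDK15 at 1.19, MUC5AC at 1.23 and GAS7 at 1.25. None of the 9 neighbours was among these 5, which their smaller fold changes given above had already settled. The likeness was taken over 2 comparisons that share their controls.

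The genes of the pathways to which the members belong were listed by function. The counts include the member that a list was made for, and the casein kinase 2 list holds none of the members. The counts of each list are to be read against all tested genes, of which 34.8% were higher and 35.9% lower with siZIP7_1 and 38.5% were higher and 39.3% lower with siZIP7_2. The median log2 fold changes over all tested genes were -0.0069 and -0.0018. The ER and Golgi zinc transporters are the group of SLC39A7, and of 7 tested, SLC39A7 included, 3 were higher and 4 lower with siZIP7_1 (median log2 fold change -0.59) and 2 were higher and 2 lower with siZIP7_2 (median -0.02). SLC30A6, which loads zinc into the Golgi together with SLC30A5, fell from 47.3 ± 1.99 CPM (SD, n = 3) to 31.5 ± 3.12 and 11.9 ± 0.673 CPM. SLC39A13, like SLC39A7 a member of the SLC39 family that moves zinc into the cytosol, rose from 133 ± 5.21 to 189 ± 6.84 and 145 ± 6.20 CPM. Of the 4 genes of casein kinase 2, the kinase that acts on ZIP7, 0 were higher and 3 lower with siZIP7_1 and 1 was higher and 1 lower with siZIP7_2. The catalytic subunit CSNK2A1 fell with both, by 0.58 and 0.27 on the log2 scale.

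RXRB acts as a partner of other nuclear receptors, and of 13 tested genes of that group 5 were higher and 5 lower with siZIP7_1 and 6 were higher and 6 lower with siZIP7_2. NR1H3, the liver X receptor alpha, fell by 0.66 and 1.93 on the log2 scale, and RARG, a retinoic acid receptor, fell by 1.95 and 0.49. In mitochondrial fatty acid synthesis, the pathway of HSD17B8, 3 of 9 genes were higher and 3 lower with siZIP7_1 and 2 were higher and 5 lower with siZIP7_2. MECR, the last reductase of that cycle, fell by 0.55 and 0.95 on the log2 scale. Of 19 PRC1 genes, the complex of RING1, 3 were higher and 8 lower with siZIP7_1 and 10 were higher and 6 lower with siZIP7_2. The PRC1 subunits PCGF6 and PHC2 fell with both siRNAs, PCGF6 by 1.59 and 0.52 and PHC2 by 0.91 and 1.12 on the log2 scale.

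Of the 5 GARP and EARP genes that include VPS52, 2 were higher and 2 lower with siZIP7_1 and 4 were lower with siZIP7_2. VPS51 fell by 0.15 and 0.32 on the log2 scale and VPS54 by 0.19 and 0.15. The small subunit processome, to which WDR46 belongs, was the largest list. Of 31 tested genes, 26 were lower and 3 higher with siZIP7_1 (median log2 fold change -0.43), where 35.9% of all tested genes were lower. With siZIP7_2, 30 were lower and 0 higher (median -0.70), where 39.3% of all tested genes were lower. FBL, the methyltransferase fibrillarin, fell from 280 ± 25.8 CPM (SD, n = 3) to 170 ± 10.2 and 70.7 ± 6.04 CPM, and UTP20 fell from 116 ± 3.28 to 50.1 ± 2.80 and 46.3 ± 5.88 CPM. With siZIP7_1 the value of WDR46 itself (-0.69) was below the median of its list, and with siZIP7_2 its value (-0.51) was above it. Of the 6 prefoldin genes, 4 were lower and 1 higher with siZIP7_1 and 5 were lower and 1 higher with siZIP7_2. VBP1 fell by 1.30 and 0.61 on the log2 scale and PFDN4 by 0.95 and 0.70.

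Ganglioside synthesis, the pathway of B3GALT4, had 7 tested genes, of which 2 were higher and 4 lower with siZIP7_1 (median log2 fold change -0.28). With siZIP7_2, 6 were higher and 1 lower (median 0.52), where 38.5% of all tested genes were higher. ST3GAL5, which makes the first ganglioside of the pathway, rose with both siRNAs, from 8.996 ± 0.442 CPM (SD, n = 3) to 13.4 ± 0.362 and 14.5 ± 0.835 CPM. Among 8 Ral exchange factors and Ral GTPases, the group of RGL2, 5 were higher and 1 lower with siZIP7_1 and 4 were higher and 3 lower with siZIP7_2. RALGPS1 rose by a log2 fold change of 1.45 and 1.71, and RGL3 by 0.72 and 0.94, where RGL2 had values of 0.22 and -0.61. Of 6 genes for DAXX and its nuclear partners, 0 were higher and 3 lower with siZIP7_1 and 2 were higher and 2 lower with siZIP7_2. SP100, a nuclear body protein, fell by 0.54 and 0.42 on the log2 scale, and H3F3B, which encodes histone H3.3, fell by 0.57 and 0.10. The H3F3B value with siZIP7_2 was close to the threshold (adjusted p = 0.0485, edgeR's quasi-likelihood test). It was smaller than the 0.106 by which upper-quartile normalization moved the median of all genes in that comparison.

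Across the series, the reads assigned to genes in a library numbered from 24153785 to 30454419. The share of all reads assigned to no counted feature was 7.43 to 8.28% with siNC, 7.80 to 9.62% with siZIP7_1 and 9.995 to 11.5% with siZIP7_2. The kind of feature counted is not given, so these reads may include some from introns. Markers of the line were present, with VIM at a mean of 5529, 2687 and 2896 CPM with siNC, siZIP7_1 and siZIP7_2. The summed level of 5 such markers (VIM, CD44, EGFR, AXL and FN1) was 9187 to 9767, 5867 to 6145 and 6820 to 7121 CPM. All 5 means were lower with siZIP7_1 than with siNC. With siZIP7_2, CD44 (1793 against 816 CPM) and EGFR (890 against 671 CPM) were higher than with siNC, and the other means were lower. ESR1 and PGR, which a triple-negative line lacks, reached at most 0.582 and 0.0728 CPM. ERBB2, the third receptor listed as low or absent, was present at 56.7 to 91.5 CPM. The summed level of 5 luminal epithelial markers was 526 to 552, 1166 to 1203 and 478 to 497 CPM in the siNC, siZIP7_1 and siZIP7_2 groups. KRT8, KRT18 and KRT19 made up nearly all of these sums. EPCAM and CDH1 had means of 6.57 and 0.466 CPM with siNC, 9.68 and 4.18 with siZIP7_1 and 4.42 and 0.998 with siZIP7_2. All 5 means were higher with siZIP7_1 than with siNC. With siZIP7_2, those of KRT19 (107 against 79.6 CPM) and CDH1 were higher than with siNC, and the other means were lower. The summed level of 3 leukocyte markers was 1.68 to 2.87, 1.31 to 1.60 and 9.08 to 12.2 CPM, nearly all from CD14 with siZIP7_2, and CD3E was at or near 0 throughout. With siZIP7_1, mean CD14 was lower than with siNC (0.544 against 1.81 CPM) and mean PTPRC was higher (0.875 against 0.402 CPM). The summed level of 2 endothelial markers, PECAM1 and CDH5, was 2.88 to 3.31, 0.206 to 0.255 and 9.15 to 10.4 CPM, mostly from PECAM1 with siNC and siZIP7_2. With siZIP7_1, mean PECAM1 was lower than with siNC (0.102 against 3.02 CPM) and mean CDH5 was higher (0.135 against 0.0119 CPM). These siZIP7_1 values were close to the floor for detection. The part of these shifts in the members' results was not tested.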

How the data were processed

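RNA was taken 96 h after transfection, and single reads were sequenced. The deposited values are raw, unnormalized read counts, given by the authors for each Ensembl gene. The submitters' processing notes name Trim Galore 0.4.1, FastQC 0.11.2, STAR, HTSeq 0.6.1 and DESeq2 1.16.1 without their roles. The genome build, annotation and strand setting are not given in the sources used here. The summary lines at the end of each file (no feature, 7.43 to 11.5% of reads, and ambiguous, 2.67 to 2.91%) were left out. Of 58395 identifiers, 58275 were in GENCODE 29 (GRCh38), which gave symbols, positions and exonic lengths. Motif letters were searched in RefSeq promoter windows (GRCh38.p14).

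Counts were analysed with R 4.3.3 and edgeR 4.0.16: TMM normalization, the low-count filter over the groups (16761 genes kept), 1 fit of 3 groups with 6 residual degrees of freedom, and the quasi-likelihood test, adjusted over all tested genes after Benjamini and Hochberg with a threshold of 0.05. The SE was the size of the log2 fold change divided by the square root of F, and 95% intervals used the test's degrees of freedom. The biological coefficient of variation was 4.5%. Shares of reads have Wilson 95% intervals, and a count of 3 was the floor for detection. Both cover counting error only, since no molecular identifiers were named. Shares and sums were compared by exact permutation over libraries. The steps were tested on simulated data. A further leukocyte marker is not reported here.

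The genes named were the 10 members, all protein-coding genes within 100 kb of SLC39A7, the 5 genes (mean 1 CPM or more) whose pair of log2 fold changes lay nearest to that of SLC39A7, and from each pathway list up to 2 genes called in one direction with both siRNAs with the largest mean log2 fold change. ZBTB22 was named as well, since it lies nearer than DAXX. The members and lists were chosen with earlier results of these data known. Alternatives were DESeq2 1.42.0 or its size factors, upper-quartile scaling, a minimum of 10 counts per library, no filter on low counts, glmTreat against 1.5-fold, a replicate block, fits of 2 groups alone, and leaving out single libraries. For the SLC39A7 share, the other members were also replaced by RXRB alone or taken without RXRB.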

Additional observations from a re-analysis of the deposited data

Results flagged for a closer look

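The effects of the siRNAs differed for 9 of the 10 members, by edgeR's quasi-likelihood test of siZIP7_2 against siZIP7_1 with Benjamini-Hochberg adjustment (78.7% of all tested genes differed). As log2 differences, siZIP7_2 minus siZIP7_1, the values were -0.89 for SLC39A7, -0.56 for RXRB, -1.98 for HSD17B8, -1.13 for VPS52, -0.56 for PFDN6 and -0.83 for RGL2, all lower with siZIP7_2. They were 0.43 for RING1, 0.18 for WDR46 and 0.50 for B3GALT4, all higher with siZIP7_2. RGL2 was called in opposite directions against siNC by the siRNAs.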

How the results depend on the processing

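With each library left out in turn, the log2 fold change of SLC39A7 ranged from -3.26 to -3.15 with siZIP7_1, from -4.14 to -4.04 with siZIP7_2 and from -0.96 to -0.84 between them. The number of neighbours called ranged from 4 to 5, 7 to 8 and 7 to 8. With glmTreat against 1.5-fold, which asks for a larger change, 2, 3 and 3 neighbours and 4636, 6420 and 6810 genes passed. The share of SLC39A7 among reads of SLC39A7 and RXRB alone was 74.9, 23.8 and 19.8% with siNC, siZIP7_1 and siZIP7_2, and among the members without RXRB it was 35.4, 6.57 and 4.44%. Values that had not passed the test changed sign for B3GALT4 with siZIP7_1 when libraries were left out (range -0.19 to 0.11), to 0.11 without siNC replicate 1 and to 0.019 without siZIP7_1 replicate 2. DAXX with siZIP7_2 turned from -0.054 to 0.053 under upper-quartile normalization and to 0.021 with a minimum of 10 counts per library. The cause was not tested. Upper-quartile normalization moved the median of all genes with siZIP7_2 by 0.106 on the log2 scale. The rise of B3GALT4 with siZIP7_2 was also lost with DESeq2 (adjusted p = 0.0667) and with no low-count filter (adjusted p = 0.0974). With no low-count filter, DAXX passed in siZIP7_2 against siZIP7_1 (-0.13, adjusted p = 0.0298). Libraries of the same replicate number had a mean correlation of deviations of 0.0115 (9 pairs) and those of different numbers one of -0.00579 (18 pairs), so the numbers were not taken to pair the libraries. With the replicate block, 5, 8 and 8 neighbours and 11927, 13080 and 13242 genes were called, the log2 fold changes of SLC39A7 were -3.20, -4.10 and -0.89, and no member's call changed. At this depth B3GALT4 and HSD17B8 with siZIP7_2, with the fewest reads, were the least precise.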

Other observations

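Wider windows around SLC39A7, which include the genes within 100 kb, were also counted. All tested genes give the background, with 34.8% higher and 35.9% lower with siZIP7_1 and 38.5% higher and 39.3% lower with siZIP7_2. Within 500 kb, 32 of 37 other protein-coding genes were tested, with 6 higher and 20 lower with siZIP7_1 (median log2 fold change -0.39) and 5 higher and 23 lower with siZIP7_2 (median -0.85). On the side of lower coordinates, which holds MHC class II genes, 12 of 13 tested genes were lower with siZIP7_1 (median -1.73) and 10 of 13 with siZIP7_2 (median -1.31). These include the 7 tested HLA genes, of which 7 and 6 were lower. On the side of higher coordinates, where most of the neighbours lie, 8 of 18 tested genes were lower and 6 higher with siZIP7_1 (median -0.09), and 12 were lower and 3 higher with siZIP7_2 (median -0.56). Within 1000 kb, 38 of 49 genes were tested, with 24 lower with siZIP7_1 and 28 lower with siZIP7_2. The difference between the sides was not tested.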
